A study of Mus musculus with 60 samples.

Results

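Two-pore potassium channels (K2P channels) carry the leak current that sets the resting potential of neurons, and 7 of their genes are described here: Kcnk9, Kcnk3, Kcnk1, Kcnk2, Kcnk10, Kcnk4 and Kcnk12. They were picked by symbol from the 18088 genes of a table of normalised read counts, through the GENCODE M21 annotation. The set is built around Kcnk9, already known from these data to be higher in heterozygous than in wild-type mice given vehicle, so that the vehicle values describe it and carry no test. The sources used here do not say how the other 6 genes of the family were picked, and their genotype values in vehicle are treated the same way. All 7 passed the filter on low values, which asked for 10 or more in 5 or more libraries.

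RNA came from the prefrontal cortex of C57BL/6J mice at postnatal day 25. Wild-type (WT) mice were compared with heterozygotes (Het) for the C456Y allele of Grin2b, the gene of the NMDA receptor subunit GluN2B. All pups took in vehicle, the serotonin reuptake inhibitor fluoxetine or the mood stabiliser lithium from their mother's milk, from postnatal day 3 to 24. The 6 groups of genotype and drug held 10 libraries each, 5 from females and 5 from males. The labels do not say whether replicates are separate animals or litters, so p-values rest on the spread between these samples, which may be partly technical. Pups that shared a treated mother would not be independent in the drug comparisons, and no term for the mother was fitted.

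A K2P channel subunit has a pair of pore loops, and the channel is built from a pair of subunits whose loops together form the potassium-selective filter. These channels are open at rest and are tuned by pH, membrane stretch, lipids, volatile anaesthetics and receptors coupled to Gq. Kcnk9 (TASK-3) and Kcnk3 (TASK-1) encode acid-sensitive channels that can pair with each other. Kcnk1 encodes TWIK-1, a weak inward rectifier. Kcnk2 (TREK-1), Kcnk10 (TREK-2) and Kcnk4 (TRAAK) encode channels opened by stretch and by arachidonic acid, and Kcnk12 (THIK-2) encodes a subunit that carries little current on its own. Kcnk9 is imprinted in the brain, where the maternal copy is the one mainly expressed.

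The coding bases of both selectivity filters are shown for the 7 genes, since each K2P subunit has a pair of pore loops. Each stretch of 33 bases comes from the longest complete coding sequence in the GENCODE M21 transcripts, reads 5′ to 3′ on the coding strand, and has the 15 bases of the filter codons in capitals.

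Kcnk9 pore 1: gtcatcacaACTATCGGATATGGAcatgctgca
Kcnk3 pore 1: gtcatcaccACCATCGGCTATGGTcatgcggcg
Kcnk1 pore 1: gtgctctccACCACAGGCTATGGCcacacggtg
Kcnk2 pore 1: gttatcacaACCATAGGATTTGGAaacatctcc
Kcnk10 pore 1: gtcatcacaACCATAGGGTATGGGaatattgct
Kcnk4 pore 1: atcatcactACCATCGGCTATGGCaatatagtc
Kcnk12 pore 1: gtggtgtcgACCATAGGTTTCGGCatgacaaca
Kcnk9 pore 2: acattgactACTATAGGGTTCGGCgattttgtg
Kcnk3 pore 2: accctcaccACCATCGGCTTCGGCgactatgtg
Kcnk1 pore 2: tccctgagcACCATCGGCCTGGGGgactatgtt
Kcnk2 pore 2: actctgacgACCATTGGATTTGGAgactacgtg
Kcnk10 pore 2: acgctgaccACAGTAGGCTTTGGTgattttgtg
Kcnk4 pore 2: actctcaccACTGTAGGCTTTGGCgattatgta
Kcnk12 pore 2: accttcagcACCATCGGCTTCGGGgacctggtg

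In the first pore Kcnk3 differed from Kcnk9 at 6 of the 33 bases and Kcnk12 at 17, the fewest and the most of the set. The order was another in the second pore, where Kcnk10 differed least, at 8, and Kcnk1 most, at 14. There Kcnk3 differed at 9 and Kcnk12 at 11. Over the whole coding sequence, Kcnk2 and Kcnk10 were the closest pair at 68.8% identical aligned bases, and Kcnk9 and Kcnk3 the next at 66.6%. No run of 31 bases was shared by any of the 91 pairs of K2P genes in the annotation, the length over which identical stretches could have mixed their reads.

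On GRCm38, Kcnk9 lies on chromosome 15 at 72501089 to 72546340 (minus strand), and Kcnk3 on chromosome 5 at 30588170 to 30625271 (plus). Kcnk1 lies on chromosome 8 at 125995170 to 126030685 (plus), Kcnk2 on chromosome 1 at 189207930 to 189402273 (minus), and Kcnk10 on chromosome 12 at 98429437 to 98578310 (minus). Kcnk4 lies on chromosome 19 at 6923966 to 6934515 (minus), and Kcnk12 on chromosome 17 at 87745801 to 87797994 (minus). Exons of Kcnk3 overlap the antisense gene Gm9899 over 229 bases, those of Kcnk2 the antisense gene A430027H14Rik over 604 bases, and those of Kcnk4 the gene Catsperz on the same strand. The values of these 3 genes are uncertain to that extent, since the sources used here do not give whether counting used the strand. The transcripts differ in GC content, which bears on the results below. Kcnk12 has 69.42% GC in its longest transcript (percentile 99.9 of all genes) and Kcnk3 59.07% (percentile 93.7), while Kcnk9 has 47.85% (percentile 42.1).

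The libraries held 23901635 to 37769417 reads. Het fluoxetine libraries differed from the rest: on the mean log2 level of 16 pseudogenes, 9 of these 10 lay between 1.78 and 2.6, and male replicate 1 was at 5.65. These pseudogenes were themselves picked from the genotype contrast in fluoxetine, as called genes past 4-fold, so the level is no independent measure of it. WT vehicle female replicate 2 was at 3.15, and no other library was below 4.6. These 10 low libraries are not a group of the design. Across 11033 genes the deviations of a Het fluoxetine library correlated with GC content at -0.479 to -0.172. The range was -0.548 to 0.344 in WT vehicle, -0.238 to 0.381 in Het vehicle, -0.013 to 0.423 in WT fluoxetine, -0.786 to 0.353 in WT lithium and -0.37 to 0.546 in Het lithium. Het fluoxetine thus overlapped with every group but WT fluoxetine, and the most negative library was one of WT lithium. Results that use Het fluoxetine are therefore given also with a term for the low libraries (the library term), without those libraries, and after a GC correction. The library term rests equally on Het fluoxetine male replicate 1 and WT vehicle female replicate 2. Each is alone in its state among the 5 libraries of its group and sex. Without the low libraries, the level of Het fluoxetine rests on male replicate 1, and its comparisons use males only. Markers of excitatory neurons were present, with a summed level of 139946.3 to 245794.2 over the groups normalised read counts, and 2 of 3 listed markers of cerebellar granule cells summed to 213.5 to 855.6.

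Per kilobase of exon, Kcnk1 had the highest mean level of the set, at 1232 normalised read counts over the 60 libraries. Kcnk9 followed at 517.8, then Kcnk2 at 290.4, Kcnk3 at 171.1, Kcnk4 at 126.5, Kcnk12 at 84 and Kcnk10 at 33.2. The shallowest was Kcnk12, with 89 to 351 reads in a library, against 4196 to 8792 for Kcnk9. Of 7 further K2P genes 4 were in the table, and all 4 were below 50 per kilobase: Kcnk13 at 47.9, Kcnk6 at 39.3, Kcnk5 at 9.26 and Kcnk15 at 7.07. Kcnk15 had no read in 6 libraries. Kcnk7, Kcnk16 and Kcnk18 were not analysed here.

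Kcnk9 RNA was lowest in WT mice given vehicle and highest in WT mice given lithium. In vehicle its normalised read count ran from 4797.2 through a median of 5420.3 to 6226.9 in WT libraries, and from 5559.3 through 6613.1 to 7051.3 in Het libraries. Each of the 10 Het libraries exceeded the mean of WT libraries of the same sex, and the ranges overlapped. The log2 fold of 0.29 (SE 0.046) is a description of the contrast already known for this gene and has no test. In these bulk samples fewer cells of a type and less RNA per cell cannot be told apart.

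The highest WT vehicle library was female replicate 2 at 6226.9, the low library named above, while the other 9 reached 5576.2. Without the low libraries the fold was 0.31 (SE 0.048). In WT vehicle the sexes did not overlap, with females at 5438.7 to 6226.9 and males at 4797.2 to 5401.9. The vehicle difference was 0.21 in females and 0.37 in males on the log2 scale.

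**Figure D1:**
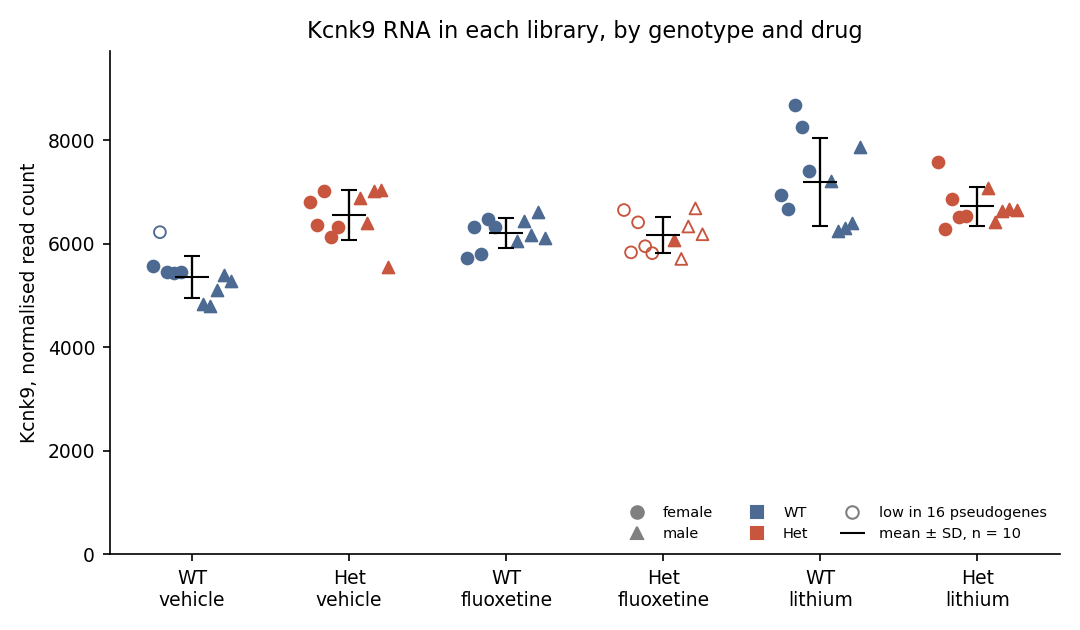
Normalised read count of Kcnk9 (y axis, from 0) in each library of the 6 groups of genotype and drug (x axis), with the mean and SD of 10 libraries. Circles are females, triangles males, and open symbols the 10 libraries low in 16 pseudogenes; WT vehicle sits lowest, with a mean of 5358.1, and WT lithium highest, at 7202.6.

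No genotype difference of Kcnk9 was called under either drug. Under fluoxetine the values ran from 5736.6 through 6245.9 to 6609.4 in WT and from 5709.9 through 6130.5 to 6686.6 in Het libraries, ranges that nearly coincide. The log2 fold was -0.01 (95% interval -0.10 to 0.08, limma adjusted p = 0.895), with -0.05 without the low libraries and -0.11 with the library term. Under lithium they ran from 6251.4 through 7080.3 to 8692.3 in WT and from 6283.2 through 6653.3 to 7575.2 in Het libraries. This log2 fold was -0.09 (95% interval -0.18 to 0.00, adjusted p = 0.438), with 9 of 10 Het libraries below the WT mean of their sex. The genotype differences in fluoxetine and lithium differed by 0.08 (95% interval -0.05 to 0.21, adjusted p = 0.349). Relative to the vehicle difference they were lower by log2 -0.30 (SE 0.065) and -0.38 (SE 0.065), which are descriptions, since the vehicle contrast was known when the gene was picked.

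Against vehicle, Kcnk9 in WT mice was higher by a log2 fold of 0.21 (SE 0.046) in fluoxetine and 0.42 (SE 0.046) in lithium. All 10 WT libraries of each drug lay above the vehicle mean of their sex, and those of lithium did not overlap with vehicle. In Het mice the same differences were -0.09 (SE 0.046) for fluoxetine and 0.04 (SE 0.046) for lithium, with overlapping ranges. These 4 values share vehicle libraries with the genotype difference and carry no test.

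The comparison of the drugs with each other used no vehicle library. In WT mice Kcnk9 was lower in fluoxetine than in lithium, at a log2 fold of -0.21 (limma SE 0.046, adjusted p = 0.00226). By sex this log2 difference was -0.30 in females and -0.11 in males, and whether the sexes differ here was not tested. All 10 fluoxetine libraries lay below the lithium mean of their sex, with overlapping ranges. This call was made in each of 60 fits that left out 1 library and in each of 11 other alternatives, with adjusted p up to 0.0433. In Het mice the log2 fold was -0.13 (SE 0.046, adjusted p = 0.0299), also with 10 of 10 libraries lower. That call was lost with the library term (-0.22, SE 0.085, adjusted p = 0.565, over alternatives other than leaving out 1 library 0.012 to 0.954) and without the low libraries (-0.14, adjusted p = 0.954). It was also lost without Het lithium female replicate 1 (-0.10, adjusted p = 0.0785) or male replicate 1 (-0.12, adjusted p = 0.0592). The same held without Het fluoxetine female replicate 2 (-0.12, adjusted p = 0.0546), female replicate 5 (-0.12, adjusted p = 0.0572) or male replicate 2 (-0.11, adjusted p = 0.066).

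Ordered by mean, the 6 groups were WT vehicle (5358.1 ± 406.5), Het fluoxetine (6167.7 ± 348.1), WT fluoxetine (6205.6 ± 288.1), Het vehicle (6556.3 ± 485.4), Het lithium (6726.4 ± 370.9) and WT lithium (7202.6 ± 852.5; SD, n = 10 each). Only the step from WT vehicle to the next group, 809.6, was larger than the larger SD of the neighbours. WT lithium was also the group with the widest spread. Markers of several other cell types moved in the comparison of WT lithium with WT vehicle, where limma called 9.87% of all genes lower. Lithium in WT mice lowered 5 of 5 microglial markers, 4 of 4 of pericytes and smooth muscle, 4 of 5 of endothelium, 3 of 4 of meningeal fibroblasts, 3 of 7 of astrocytes and 2 of 4 of oligodendrocyte precursors. The summed microglial level was 4285 to 6513.2 in WT lithium and 6391.2 to 7812.6 in WT vehicle, and no marker of these lists was at 0 throughout. The 6 oligodendrocyte markers, none of them called, had a median sum of 113785.2 in WT lithium and 153835.9 in WT vehicle, with overlapping ranges. None of 5 striatal markers was called, though their sum ran from 1942.8 through a median of 3151.9 to 19344.6 in WT lithium and reached 5068.3 in WT vehicle. Excitatory neuron markers had a median sum of 175663.5 in WT lithium and 198722.9 in WT vehicle, and inhibitory neuron markers 24393.5 and 22754.1. Olfactory bulb markers had 1539.5 and 3569.6, with libraries up to 7938.6 and 12851. For each of these lists the ranges overlapped. In fluoxetine against lithium in WT mice 4 of 5 microglial and 2 of 4 oligodendrocyte precursor markers were higher. There limma called 13.1% of all genes, 5.92% as higher. The part of the markers in the Kcnk9 values was not tested.

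Kcnk9 lies next to Trappc9, Peg13, Chrac1 and Ago2 in the imprinted cluster on chromosome 15. Peg13, the paternally expressed noncoding RNA of the cluster, was called by limma in none of the comparisons, and its log2 fold was -0.01 (SE 0.038) between Het and WT mice in vehicle and 0.02 (SE 0.038) for lithium in WT. Ago2, a core component of RNA silencing, was lower in fluoxetine than in lithium in WT mice (-0.22, SE 0.045, adjusted p = 0.00131), as was Kcnk9. There limma called 7.14% of all genes lower. In vehicle Trappc9 (0.03), Chrac1 (-0.00) and Ago2 (0.09) were not called between genotypes. Under fluoxetine Trappc9 (-0.29, adjusted p = 0.00061) and Chrac1 (-0.20, adjusted p = 0.0307) were lower in Het mice and Ago2 higher (0.15, adjusted p = 0.00699). In that comparison limma called 39.5% of all genes, 19.9% as lower and 19.6% as higher. Mean Ago2 was 4140.4 in WT vehicle and 3762.2 in WT fluoxetine, and 4411 in Het vehicle and 4173 in Het fluoxetine libraries. With the library term or without the low libraries none of these 3 calls was made, and Trappc9 was at 0.03 (SE 0.115) with the term. After GC correction Ago2 was called (0.15, SE 0.042, adjusted p = 0.0113), where 13.1% of all genes were.

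Across the 12 means of genotype, drug and sex, the genes with the pattern most like that of Kcnk9 among 11900 genes with a mean value of at least 100 were Ice1 (Pearson r = 0.931), Unc13b (0.926), Rad54l2 (0.913), Slc7a6 (0.905) and Igfn1 (0.902). Their folds in vehicle were 0.05 to 0.43, with Igfn1 at 0.43 (SE 0.128). The r values are descriptions over 12 means of 5 libraries each, and the Kcnk9 means include the vehicle difference for which the gene was picked. Within the K2P set, r with Kcnk9 was 0.464 for Kcnk4, 0.208 for Kcnk3, 0.148 for Kcnk12, -0.078 for Kcnk1, -0.087 for Kcnk2 and -0.721 for Kcnk10. Over the 60 libraries, taken as deviations from their group means, r was 0.56 for Unc13b, 0.504 for Slc7a6, 0.4 for Igfn1, -0.033 for Ice1 and -0.143 for Rad54l2. Among the K2P genes it ran there from -0.446 for Kcnk12 to 0.353 for Kcnk1, with Kcnk10 at 0.102.

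Kcnk3, the acid-sensitive partner of Kcnk9, was lowest in Het mice given fluoxetine. There it ran from 534.3 through a median of 567.6 to 649.3, while Het vehicle libraries ran from 664.6 through 729.7 to 827.5 and Het lithium from 660.8 through 766.3 to 851.5. No Het fluoxetine library reached the lowest library of either other Het group. The log2 fold of fluoxetine against vehicle in Het mice was -0.34 (SE 0.054, adjusted p = 2.75e-06), and against lithium -0.40 (SE 0.054, adjusted p = 4.29e-07). These contrasts share the Het fluoxetine libraries. Male replicate 1, the Het fluoxetine library that was not low in the pseudogenes, was at 583.6, inside the range of the other 9.

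For Kcnk3 both calls were made in each of 60 fits that left out 1 library. After GC correction they held with smaller folds, -0.15 (SE 0.051, adjusted p = 0.0289) against vehicle and -0.22 (SE 0.051) against lithium. The library term left the folds at -0.34 (SE 0.103, adjusted p = 0.171) and -0.39 (SE 0.103, adjusted p = 0.189), without a call, and without the low libraries at -0.34 (SE 0.138, adjusted p = 0.67) and -0.40 (SE 0.138, adjusted p = 0.595). Over the 11 alternatives other than leaving out 1 library the adjusted p ran from 2.93e-08 to 0.67 against vehicle and from 2.27e-10 to 0.595 against lithium. In WT mice the values of Kcnk3 were 551.6 to 744 in fluoxetine and 621.2 to 754.6 in vehicle, at a log2 fold of -0.13 (SE 0.054, adjusted p = 0.136). This fold was -0.16 (SE 0.051, adjusted p = 0.0288) after GC correction, which called it, with an adjusted p of 0.0288 to 0.188 over the same 11 alternatives.

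Between genotypes in fluoxetine, Kcnk3 was lower in Het mice by -0.15 (SE 0.054, adjusted p = 0.0227), with 9 of 10 libraries below the WT mean of their sex. After GC correction the sign turned (0.09, SE 0.051, adjusted p = 0.275), and neither the library term (-0.15, SE 0.103) nor the fit without the low libraries (-0.09, SE 0.138) called it. The adjusted p ran from 0.0136 to 0.999 over the 11 alternatives. The call was also lost without WT fluoxetine female replicate 2 (-0.13, adjusted p = 0.0619). In lithium the log2 fold of Kcnk3 between genotypes was 0.15 (SE 0.054, adjusted p = 0.271).

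Kcnk1, the weak inward rectifier with the highest level per kilobase, was called in none of the comparisons tested, and its lowest unadjusted p was 0.0689, for fluoxetine in Het mice. Its 60 values ran from 2216.5 to 3252.3, and its 6 group means from 2639.1 (Het vehicle) to 2815.4 (Het fluoxetine), each gap being smaller than the SD of the groups. The widest of its folds in a comparison of 2 groups were those of fluoxetine and of lithium in Het mice, at 0.09 each (95% interval -0.01 to 0.19). Between genotypes in vehicle Kcnk1 was at -0.05 (SE 0.050), a description with no test. The fluoxetine fold of Kcnk1 in Het mice was 0.13 (SE 0.060) after GC correction, -0.08 (SE 0.090) with the library term and -0.15 (SE 0.120) without the low libraries. Fluoxetine against lithium in Het mice was at -0.29 (SE 0.120) without the low libraries, where 1 Het fluoxetine library remains. That difference was not called.

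Kcnk2, the stretch-sensitive TREK-1 channel gene, rose with fluoxetine in Het mice. It ran from 1230.7 through 1500.5 to 1652.2 in Het fluoxetine and from 1155.7 through 1351.6 to 1470.6 in Het vehicle libraries. The log2 fold was 0.16 (SE 0.053, adjusted p = 0.0143), with 9 of 10 libraries above the vehicle mean of their sex and overlapping ranges. Male replicate 1 was the lowest of the 10 Het fluoxetine libraries, at 1230.7, and the low libraries ran from 1432.6. After GC correction the log2 fold was 0.19 (SE 0.057, adjusted p = 0.0137), with the library term -0.02 (SE 0.096, adjusted p = 0.98), and without the low libraries -0.10 (SE 0.131, adjusted p = 0.941). In WT mice the fluoxetine values of Kcnk2 were 1209.9 to 1859.6 against 1323.2 to 1538.1 in vehicle (log2 fold -0.01, adjusted p = 0.95).

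Kcnk10, the closest relative of Kcnk2, was lowest in WT mice given lithium. It ran from 168.9 through 270.7 to 313.8 there, from 272.4 through 294.3 to 355.3 in WT vehicle, and from 261.2 through 321.2 to 352.6 in WT fluoxetine libraries. WT lithium female replicate 5 was the lowest at 168.9, and the next was at 230.5. Lithium lowered Kcnk10 in WT mice by -0.21 (SE 0.075, adjusted p = 0.0443), and fluoxetine was above lithium by 0.25 (SE 0.075, adjusted p = 0.0227). By sex these log2 differences were -0.35 and 0.33 in females and -0.07 and 0.16 in males. For lithium in WT mice the difference between the sexes was not called.

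Without WT lithium female replicate 5 the log2 folds of Kcnk10 were -0.14 (adjusted p = 0.143) and 0.18 (adjusted p = 0.0571), and neither was called. The first call was lost without any 1 of 12 libraries: WT lithium female replicates 2, 3 and 5 and male replicates 1, 3 and 5, and WT vehicle female replicates 2, 3 and 4 and male replicates 2, 3 and 5 (adjusted p 0.0508 to 0.143). The second was lost also without WT lithium male replicate 5 (0.23, adjusted p = 0.0522). Without the 3 libraries with the largest residuals, which include both replicates 5 of WT lithium, they were at -0.13 (adjusted p = 0.202) and 0.17 (adjusted p = 0.102). With the groups compared alone they stayed at -0.21 (adjusted p = 0.135) and 0.25 (adjusted p = 0.113), without a call.

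Kcnk4, the TRAAK channel gene, was lowest in Het mice given fluoxetine. It ran from 401.3 through 462.7 to 577.5 there, from 471.2 through 612.2 to 800.7 in WT fluoxetine, and from 469 through 595.7 to 761.8 in Het vehicle libraries. All 10 Het fluoxetine libraries lay below the mean of their sex in WT fluoxetine and in Het vehicle, with overlapping ranges. The log2 folds were -0.33 (SE 0.097, adjusted p = 0.00497) between genotypes in fluoxetine and -0.30 (SE 0.097, adjusted p = 0.0124) for fluoxetine in Het mice. Fluoxetine against lithium in Het mice was at -0.29 (SE 0.097, adjusted p = 0.0163).

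For Kcnk4, 60 of 60 fits that left out 1 library made each of these 3 calls. After GC correction none was made, with folds of -0.20 (SE 0.098) in all 3 and adjusted p of 0.136 to 0.182. Under the library term they were at -0.32, -0.28 and -0.28 (SE 0.184), again without a call, and without the low libraries at -0.18, -0.19 and -0.11 (SE 0.247). Male replicate 1 was at 532.6, inside the range of the other 9.

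Kcnk12, the THIK-2 subunit gene, has the highest GC content of the set. It ran from 106.5 through 124.7 to 184.1 in Het fluoxetine, from 136.5 through 180.2 to 216.3 in WT fluoxetine, from 133 through 165.5 to 216 in Het vehicle, from 138.8 through 191.2 to 279.2 in Het lithium and from 96.6 through 157.7 to 222.6 in WT lithium libraries. The highest Het fluoxetine value, 184.1, was that of male replicate 1, and the 9 low libraries reached 136.3. In WT vehicle the single low library, female replicate 2, was the lowest at 100.5, and the next was at 156.7. The lowest of all 60 libraries was WT lithium male replicate 5 at 96.6, which is not low in the pseudogenes, and 4 further such libraries of WT lithium and Het vehicle lay between 127.6 and 136.1.

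The log2 folds of Kcnk12 were -0.45 (SE 0.12, adjusted p = 0.00222) between genotypes in fluoxetine, -0.36 (SE 0.12, adjusted p = 0.0139) for fluoxetine in Het mice and -0.55 (SE 0.12, adjusted p = 0.000474) against lithium in Het mice. The sign of each turned with the library term, to 0.17 (SE 0.205), 0.26 (SE 0.205) and 0.07 (SE 0.205). After GC correction the first 2 were at -0.02 and -0.10 (SE 0.067), without a call, and the third was called at -0.25 (SE 0.067, adjusted p = 0.0105). Without the low libraries they were at 0.10, 0.10 and -0.03 (SE 0.284).

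**Figure D2:**
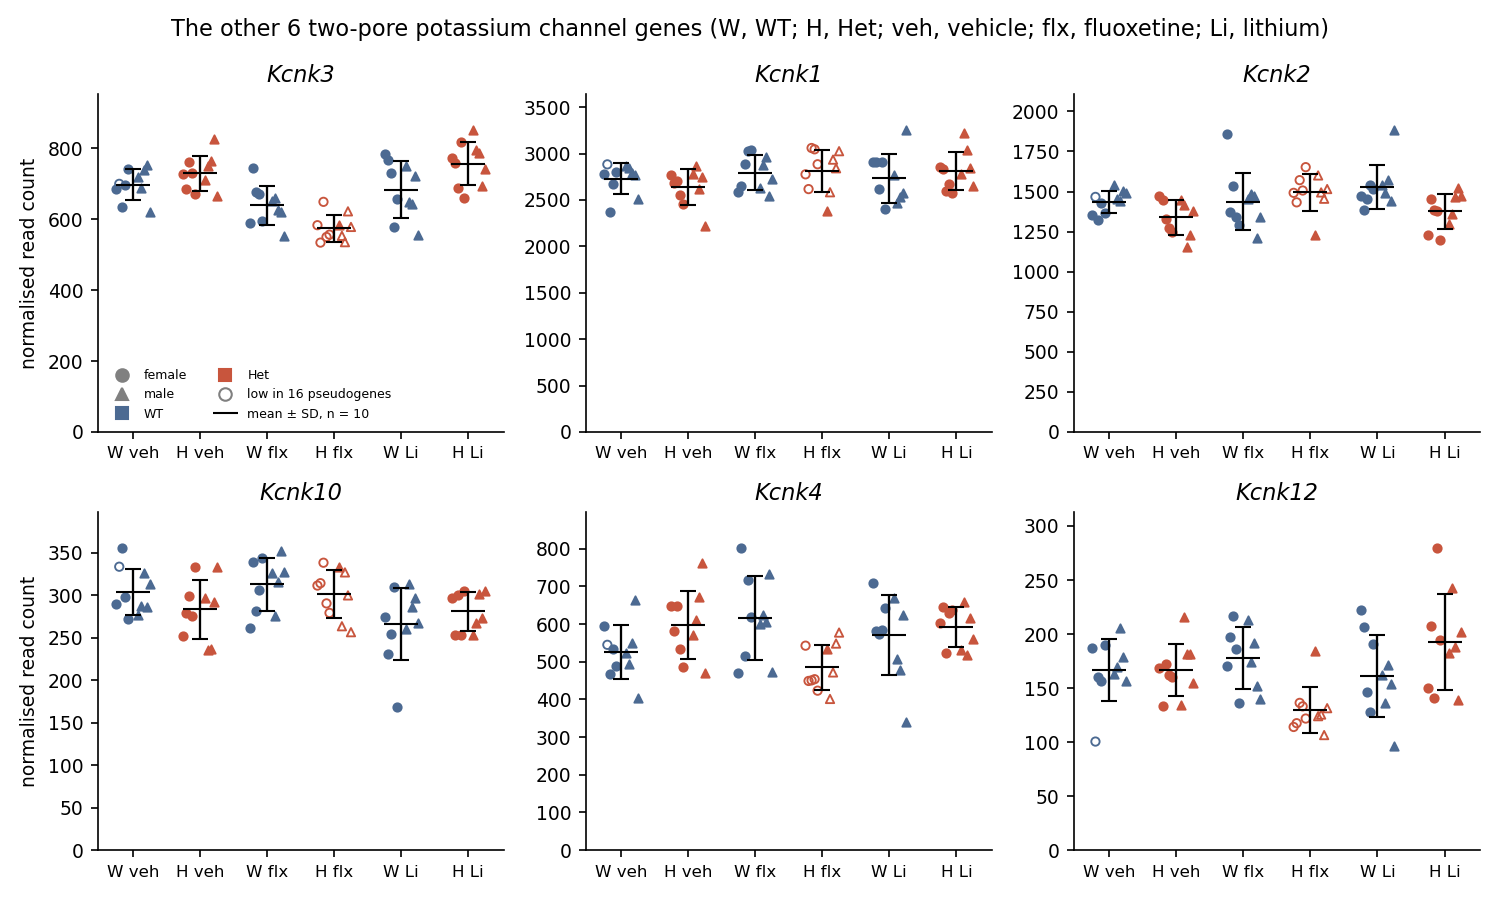
Normalised read counts (y axes, from 0) of the other 6 genes in each library of the 6 groups (x axis; W, WT; H, Het; veh, vehicle; flx, fluoxetine; Li, lithium), with mean and SD of 10 libraries. Open symbols are the 10 libraries low in 16 pseudogenes; in Kcnk12 the filled symbol of Het fluoxetine, 184.1, sits above the 9 open ones, and in Kcnk3 it lies among them.

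Counted over the set, 3 of 7 genes were lower in Het than in WT mice under fluoxetine (Kcnk3, Kcnk4 and Kcnk12) and none higher, where limma called 39.5% of all 17810 genes tested and 19.9% as lower. None of the 7 was called with the library term (0.0393% of all genes), without the low libraries (0.0842%) or after GC correction (13.1%). Under lithium none of the 7 was called between genotypes, against 0.0281% of all genes. There 3 of 7 had an unadjusted p under 0.05, and none was called by edgeR (0.0338% of all genes) or DESeq2 (0.115%). The median log2 fold of the 7 genes under fluoxetine was -0.05, and that of all genes -0.01. In vehicle, where 0.59% of all genes were called, the folds of the other 6 genes were -0.11 (Kcnk10), -0.10 (Kcnk2), -0.05 (Kcnk1), 0.01 (Kcnk12), 0.06 (Kcnk3) and 0.18 (Kcnk4), given as a description.

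Fluoxetine in Het mice lowered 3 of the 6 genes tested (Kcnk3, Kcnk4 and Kcnk12) and raised 1 (Kcnk2), where 39% of all genes were called, 19.9% as lower and 19.1% as higher. None was called with the library term (0.275% of all genes) or without the low libraries (0.101%), and 2 were after GC correction (19.6%). In WT mice it called none of 6, against 8.43% of all genes, with 2 of 6 at an unadjusted p under 0.05. There edgeR (8.44% of all genes) and DESeq2 (9.36%) called none, and 1 was called after GC correction (12.4%). Lithium in WT mice lowered 1 of 6 (Kcnk10), against 19.2% of all genes called and 9.87% called lower. It was not called with the groups compared alone (7.18% of all genes), without the 3 libraries with the largest residuals (13.6%) or without the low libraries (22.8%). In Het mice lithium called none of 6 by limma (0.983% of all genes), edgeR (0.951%) or DESeq2 (2.36%), and none had an unadjusted p under 0.05. Between the drugs, 2 of 7 were called in WT mice (Kcnk9 lower and Kcnk10 higher in fluoxetine), against 13.1% of all genes, 7.14% as lower and 5.92% as higher. With the groups compared alone (2.52% of all genes) and without the 3 libraries (10.2%) 1 of 7 was called, Kcnk9. After GC correction (10.6% of all genes) 3 of 7 were, since Kcnk3 moved from -0.09 (SE 0.054, adjusted p = 0.25) to -0.21 (SE 0.051, adjusted p = 0.00412, over the 11 alternatives 0.00412 to 0.417). In Het mice 4 of 7 were lower in fluoxetine than in lithium (Kcnk9, Kcnk3, Kcnk4 and Kcnk12), against 32.8% of all genes called and 16.7% called lower. None was called with the library term (0.0505% of all genes) or without the low libraries (0.112%), and 3 of the 4 were after GC correction (12.1%). Shares of 7 genes are coarse, and none of these counts is a result about the set.

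**Figure D3:**
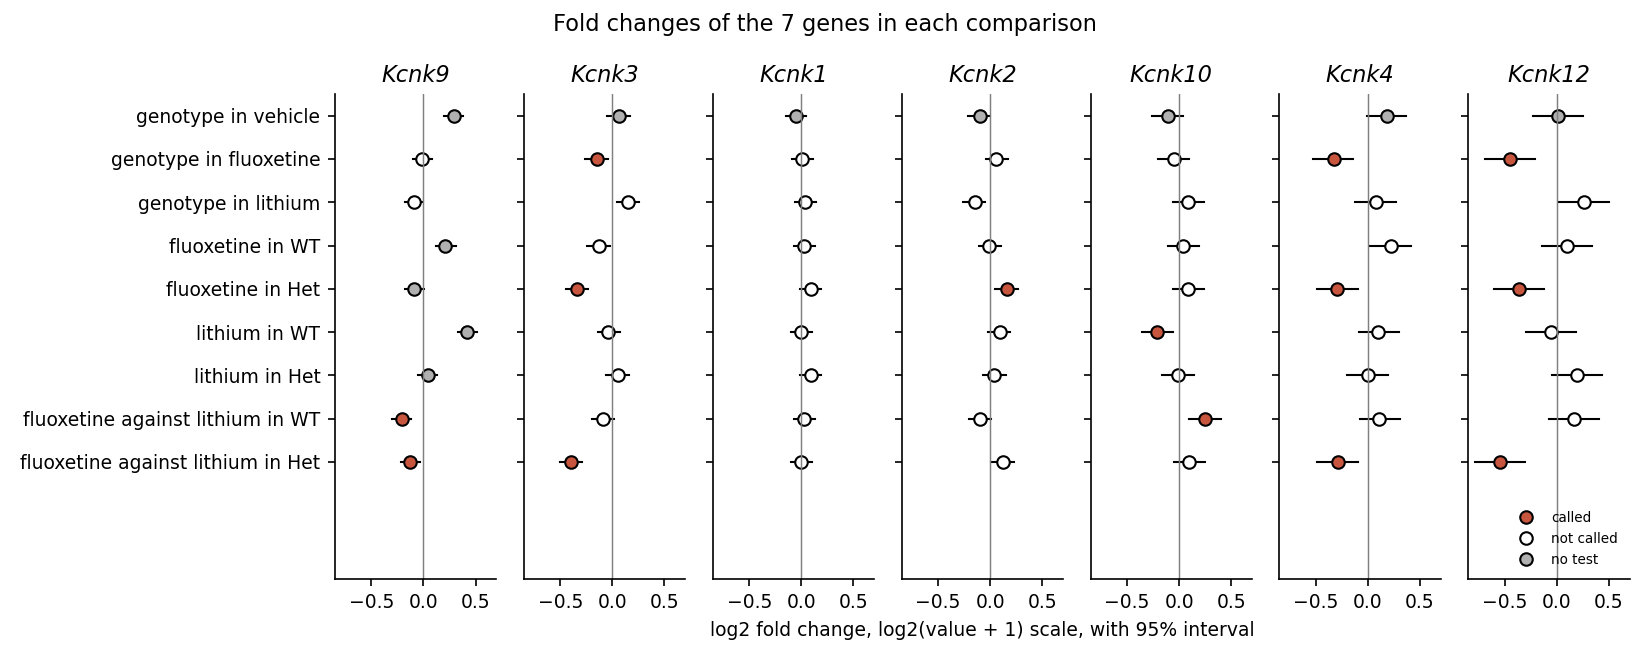
Log2 fold change with its 95% interval (x axis) of each of the 7 genes in 9 comparisons (y axis); red points were called by limma at an adjusted p under 0.05, white points were not, and grey points carry no test because the vehicle contrast was known when the genes were picked. Kcnk9 is grey at 0.29 in the vehicle genotype comparison and 0.42 for lithium in WT, and Kcnk1 has no red point.

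Whether the genotype difference changed between the drugs was tested directly. Between fluoxetine and lithium it differed for 4 of 7 genes, against 33.2% of all genes: Kcnk12 (-0.71, SE 0.17, adjusted p = 0.00139), Kcnk4 (-0.41, SE 0.137, adjusted p = 0.0177), Kcnk3 (-0.30, SE 0.077, adjusted p = 0.00227) and Kcnk2 (0.22, SE 0.075, adjusted p = 0.022). With the library term none was called (0.0337% of all genes). Kcnk3 and Kcnk4 then stood at -0.30 (SE 0.116) and -0.39 (SE 0.208), close to the values as deposited with larger errors, while Kcnk12 and Kcnk2 moved to -0.09 (SE 0.232) and 0.04 (SE 0.109). Without the low libraries, where 1 Het fluoxetine library remains, none was called either (0.073% of all genes). There Kcnk3 was at -0.32 (SE 0.16), Kcnk4 at -0.35 (SE 0.285), Kcnk12 at -0.31 (SE 0.328) and Kcnk2 at -0.02 (SE 0.151). After GC correction (5% of all genes) only Kcnk2 was called (0.28, SE 0.081, adjusted p = 0.0317), with Kcnk4 at -0.25 (SE 0.138), Kcnk12 at -0.15 (SE 0.095) and Kcnk3 at -0.01.

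Relative to the vehicle difference, the genotype difference in fluoxetine was lower for Kcnk4 (-0.51, SE 0.137), Kcnk12 (-0.46, SE 0.170) and Kcnk3 (-0.21, SE 0.077) and higher for Kcnk2 (0.17, SE 0.075). In lithium the same values of the 6 genes other than Kcnk9 ran from -0.10 (Kcnk4, SE 0.137) to 0.25 (Kcnk12, SE 0.170). Each holds the vehicle contrast and is a description with no test.

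Some calls of Kcnk2 rested on single libraries. Its call for the genotype difference in fluoxetine against lithium was lost without WT lithium male replicate 5 (0.18, adjusted p = 0.0502). In fluoxetine against lithium in Het mice Kcnk2 was at 0.12 (adjusted p = 0.0764), and was called without Het fluoxetine male replicate 1 (0.15, adjusted p = 0.023) or Het lithium female replicate 2 (0.14, adjusted p = 0.0485).

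**Figure D4:**
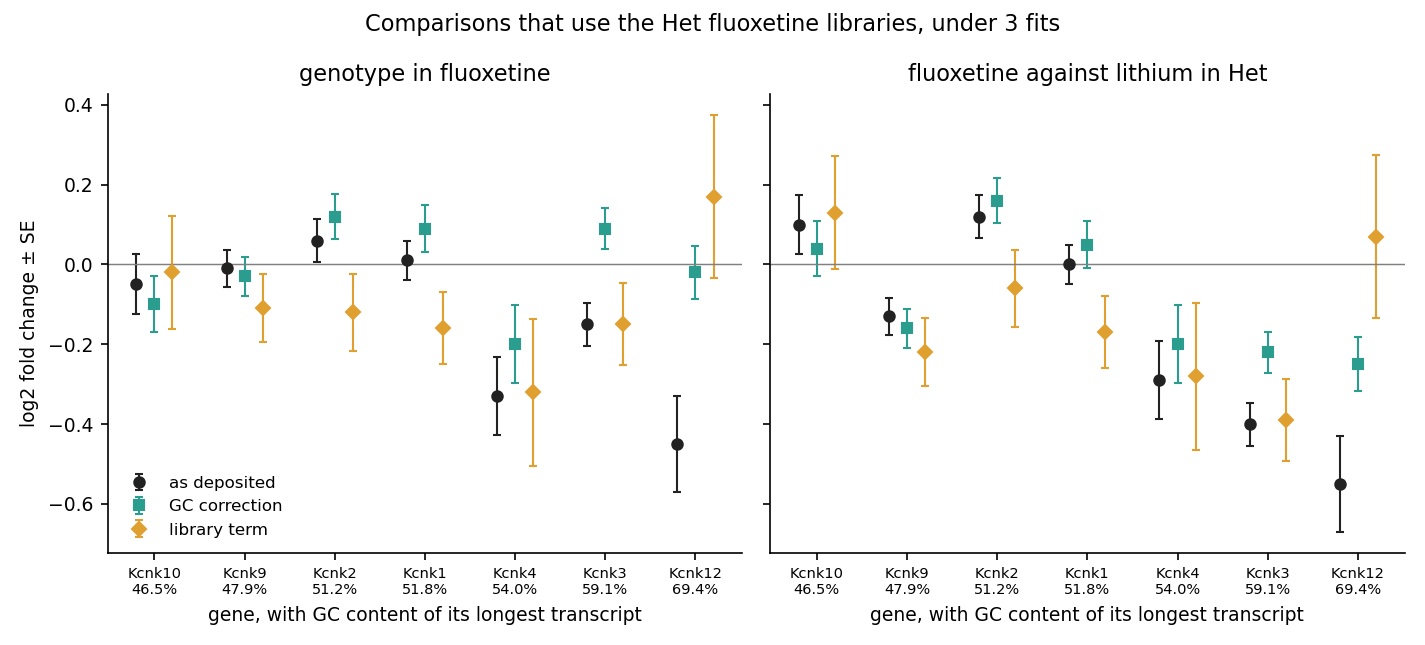
Log2 fold change with SE (y axis) of the 7 genes, ordered by the GC content of the longest transcript (x axis), in 2 comparisons that use Het fluoxetine libraries, as deposited (black), after GC correction (green) and with the library term (yellow). Kcnk12, at 69.4% GC, moves from -0.45 to -0.02 and 0.17 between genotypes in fluoxetine, while Kcnk9 stays between -0.01 and -0.11.

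Sex made no difference that was called. None of the 7 genes was called between males and females by limma (0.107% of all genes), edgeR (0.101%) or DESeq2 (0.166%), and none had an unadjusted p under 0.05. Kcnk9 was at -0.04 (95% interval -0.10 to 0.01) in males against females. In 38 tests of whether a contrast of a gene differed between the sexes none was called by the 3 tools and none had an unadjusted p under 0.05. These include lithium in WT mice, where 9.64% of all genes were called for the difference between sexes by limma, 10.6% by edgeR and 19.6% by DESeq2. In the other 5 contrasts limma and edgeR called 0% of all genes, and DESeq2 called 0.295% for genotype in fluoxetine, 0.101% for genotype in lithium, 0% for fluoxetine in WT, 0.0664% for fluoxetine in Het and 0.0166% for lithium in Het.

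Of the other 4 K2P genes measured, 3 were called in 1 comparison each, in comparisons that called 32.8% to 39% of all genes. Kcnk6 rose with fluoxetine in Het mice (0.19, SE 0.066, adjusted p = 0.0228), where 39% were called. Kcnk13 was lower in fluoxetine than in lithium in Het mice (-0.46, SE 0.146, adjusted p = 0.0128), against 32.8%. For Kcnk5 the genotype difference was lower in fluoxetine than in lithium (-0.77, SE 0.286, adjusted p = 0.0311), on values of 5.9 to 60.2, against 33.2%. Kcnk15 was called in none. With the library term these 3 folds were 0.13 (SE 0.126), -0.07 (SE 0.269) and -0.74 (SE 0.435), without a call, and without the low libraries none was called either. After GC correction Kcnk6 was called (0.22, SE 0.071, adjusted p = 0.0226), and Kcnk13 (-0.34, SE 0.145, adjusted p = 0.119) and Kcnk5 (-0.59, SE 0.279, adjusted p = 0.22) were not.

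Proteins that bind or regulate K2P channels include the 14-3-3 proteins that help TASK channels reach the surface and the Gq-coupled receptors that close them. Of 17 such genes limma called none between genotypes in vehicle or in lithium, where 1 and 2 had an unadjusted p under 0.05. Under fluoxetine 7 were higher and 2 lower in Het mice, where 39.5% of all genes were called, 19.6% as higher. These include the metabotropic glutamate receptor gene Grm5 at 0.32 (SE 0.052), the phospholipase gene Plcb1 at 0.25 (SE 0.047), the microtubule protein gene Map2 at 0.24 (SE 0.046) and Gnaq, the Gq subunit itself, at 0.19 (SE 0.039). After GC correction (13.1% of all genes called) 4 were higher and 1 lower. With the library term (0.0393%) or without the low libraries none was called. Lithium in WT mice raised 1, the 14-3-3 gene Ywhah (0.15, SE 0.053), and lowered 1, the 14-3-3 gene Ywhae (-0.10, SE 0.033), where 19.2% of all genes were called. With the library term (22.7% of all genes) or without the low libraries 3 were higher and 1 lower, and after GC correction (19.3%) none higher and 1 lower. Only WT vehicle female replicate 2 of the low libraries enters this comparison, and the other alternatives were not run for these genes. The median log2 fold of the 17 was 0.12 between genotypes in fluoxetine and 0.01 for lithium in WT.

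Other channels of the resting potential were measured as 18 genes. Lithium in WT mice raised 4 and lowered none, where 19.2% of all genes were called and 9.34% called higher. Among the 4 were the GIRK2 channel gene Kcnj6 (0.40, SE 0.068), Unc79 of the sodium leak complex (0.20, SE 0.043) and the inward rectifier gene Kcnj2 (0.30, SE 0.086). After GC correction (19.3% of all genes called) 7 were higher. With the library term (22.7%) or without the low libraries (22.8%) 5 were higher, with none lower in any of these. Of the low libraries only WT vehicle female replicate 2 enters this comparison, so these fits change it little. Fits with the groups compared alone or without the 3 libraries with the largest residuals were not run for these genes. In fluoxetine against lithium in WT mice, the comparison in which Kcnk9 was lower, 4 of the 18 were lower and 1 higher, against 7.14% of all genes called lower and 5.92% called higher, with Kcnj2 at -0.40 (SE 0.086) and Unc79 at -0.18 (SE 0.043). After GC correction (10.6% of all genes called) 6 were lower and none higher. Between genotypes in fluoxetine 7 of the 18 were higher and 6 lower in Het mice, against 19.6% and 19.9% of all genes, with Hcn2 at -0.34 (SE 0.055), the GIRK1 gene Kcnj3 at 0.27 (SE 0.06), Unc80 at 0.27 (SE 0.046) and Nalcn, the sodium leak channel gene, at 0.22 (SE 0.039). After GC correction (13.1% of all genes called) 4 were higher and none lower, with Hcn2 at 0.02 (SE 0.035). With the library term (0.0393%) or without the low libraries none was called. Limma called none of the 18 between genotypes in vehicle or in lithium, where 4 and 1 had an unadjusted p under 0.05.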

How the data were processed

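The values the authors deposited are a signal for each gene, reads divided by a factor for the library, called normalised read counts here. Per the submitters' processing notes, Salmon 0.11.2, DESeq2 1.19.11, R 3.6.0 and GRCm38 were used, without roles or order; the kit kept strand and selected mRNA, per the labels' protocols, and the sources used here do not say whether counting used the strand. Each deposited column held whole multiples of 1 step, and dividing by it gave whole reads within 0.001 for 100% of values. Limma 3.58.1 (R 4.3.3, trend and robust) was fitted on log2(value + 1) for 17810 genes that reached 10 or more in 5 or more of the 60 libraries, with 12 means of genotype, drug and sex and 48 residual degrees of freedom. Contrasts averaged the sexes. Genes were called at a Benjamini-Hochberg adjusted p under 0.05 over all genes. Folds on this log2(value + 1) scale understate the change of low genes, and intervals are 95%.

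The members and gene lists were chosen with earlier results of these data known. The genotype difference relative to vehicle, planned as a test, is given as a description because it holds the vehicle contrast. All members are named, and of each list up to 4 called genes with the smallest p in a contrast. A gene that this rule would name is not reported here. Since the table holds scaled values and no counts, the count test was kept as an alternative. Alternatives were edgeR 4.0.16 (17776 genes) and DESeq2 1.42.0 on the recovered reads, trimmed mean of M values scaling, no filter, a pseudocount of 5, groups compared alone, the replicate block, each library left out, the library term, leaving out the low libraries, leaving out the 3 libraries with the largest residuals (Het vehicle male replicate 5, WT lithium female replicate 5 and male replicate 5), and a GC correction by loess (span 0.3). On the reads edgeR called 7009 genes between genotypes in fluoxetine, against 7042 by limma. For listed genes other than the members only the library term, leaving out the low libraries and the GC correction were run, chosen after seeing the data. The model was tested on simulated reads.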

Additional observations from a re-analysis of the deposited data

Results flagged for a closer look

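Of 84 sets of 5 libraries (7 genes, 12 groups of genotype, drug and sex), 3 held a library far from the other 4, where chance flags about 1 in 20. Kcnk9 was at 6226.9 normalised read counts in WT vehicle female replicate 2, and the other 4 females ran from 5438.7 to 5576.2. Kcnk1 was at 2507.9 in WT vehicle male replicate 5, and the other 4 males ran from 2766.6 to 2862.3. Kcnk4 was at 542.7 in Het fluoxetine female replicate 1, and the other 4 females ran from 423.3 to 453.7. The first and the last of these libraries are among the 10 low in the pseudogenes.

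The genotype difference differed between fluoxetine and lithium by the test of the difference itself. On the log2 scale it was -0.30 for Kcnk3, 0.22 for Kcnk2, -0.41 for Kcnk4 and -0.71 for Kcnk12. Each uses the Het fluoxetine libraries, of which 9 of 10 are low, in a comparison that called 33.2% of all genes. None of these genes was called with the library term, and after GC correction only Kcnk2 was (0.28).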

How the results depend on the processing

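The replicate block left each of the 66 log2 folds of the members that carry a test on its side of the threshold and moved no count of members called; for Kcnk9 in fluoxetine against lithium in Het mice it gave -0.13 (adjusted p = 0.0297). Libraries of the same number correlated at a mean of 0.007, and 11 of 60 were closest to their own number, so the numbers were not taken to pair the samples. No filter, a pseudocount of 5 and DESeq2 also changed none of the 66.

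With the library term, and likewise without the low libraries, 0 members were called between genotypes in fluoxetine (3 as deposited), for fluoxetine in Het mice (4), in fluoxetine against lithium in Het mice (4), and for the genotype difference in fluoxetine against lithium (4). After GC correction these counts were 0 between genotypes in fluoxetine, 2 for fluoxetine in Het, 1 for the genotype difference against lithium, and 1 for fluoxetine in WT mice (0 as deposited). For lithium in WT mice the count of 1 became 0 with the groups compared alone, without the 3 libraries and without the low libraries. In fluoxetine against lithium in WT mice the count of 2 became 1 with the groups alone and without the 3 libraries. Leaving out each library gave 1 to 2 there, 0 to 1 for lithium in WT, 3 to 4 for the genotype difference in fluoxetine against lithium, 3 to 5 in fluoxetine against lithium in Het, and 2 to 3 between genotypes in fluoxetine.

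Folds changed sign as follows, on the log2 scale. After GC correction Kcnk3 was at 0.09 between genotypes in fluoxetine, 0.05 for lithium in WT and 0.00 between sexes; Kcnk12 at -0.01 for fluoxetine in WT, 0.09 for lithium in WT, -0.10 in fluoxetine against lithium in WT and 0.03 between sexes; and Kcnk1 at 0.02 for lithium in WT and 0.05 for the genotype difference against lithium. With the library term Kcnk1, Kcnk2 and Kcnk12 were at -0.16, -0.12 and 0.17 between genotypes in fluoxetine, at -0.08, -0.02 and 0.26 for fluoxetine in Het, and at -0.17, -0.06 and 0.07 in fluoxetine against lithium in Het. Kcnk2 was at 0.01 for fluoxetine in WT, Kcnk1 at 0.02 for lithium in WT and Kcnk9 at -0.02 for the genotype difference against lithium. Without the low libraries Kcnk1, Kcnk2, Kcnk10 and Kcnk12 were at -0.20, -0.17, 0.06 and 0.10 between genotypes in fluoxetine. Kcnk1, Kcnk2 and Kcnk12 were at -0.15, -0.10 and 0.10 for fluoxetine in Het. Kcnk9, Kcnk2 and Kcnk10 were at -0.03, -0.02 and 0.09 for the genotype difference against lithium, Kcnk1 and Kcnk2 at -0.29 and -0.21 in fluoxetine against lithium in Het, Kcnk2 at 0.00 for fluoxetine in WT and Kcnk1 at 0.01 for lithium in WT. Without the 3 libraries Kcnk3 was at 0.01 for lithium in WT and Kcnk10 at 0.03 for lithium in Het, and between sexes Kcnk3 was at 0.01, Kcnk1 at -0.01, Kcnk10 at -0.01, Kcnk4 at 0.01 and Kcnk12 at 0.03. By edgeR Kcnk1 was at -0.00 in fluoxetine against lithium in Het, and with factors from the trimmed mean at -0.00 between sexes. Apart from the GC correction, the library term and the fits without libraries, whose construction changes the values or samples, the cause was not tested.

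Leaving out each library, these ranges crossed 0: Kcnk10 -0.03 to 0.03 for lithium in Het and -0.00 to 0.04 between sexes; Kcnk12 -0.14 to 0.01 for lithium in WT and -0.03 to 0.02 between sexes; Kcnk1 -0.02 to 0.03 in fluoxetine against lithium in Het, -0.01 to 0.04 between genotypes in fluoxetine, -0.03 to 0.02 for lithium in WT and -0.01 to 0.01 between sexes. The same held for Kcnk2 at -0.05 to 0.02 for fluoxetine in WT, Kcnk3 at -0.01 to 0.01 between sexes, Kcnk4 at -0.05 to 0.04 for lithium in Het and Kcnk9 at -0.02 to 0.01 between genotypes in fluoxetine.

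Depth limits Kcnk12 most, at 89 reads in its shallowest library. Without the low libraries the male against female comparison and the sex interactions had no value, and groups compared alone gave no separate value for the sexes.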
